A study of Mus musculus with 15 samples.

Results

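The genes examined here are the clustered histone genes of the mouse, those whose older symbols begin with Hist1h, Hist2h, Hist3h or Hist4h. The name table used here, of RefSeq, holds 70 such genes, listed under newer symbols (Hist1h1b, for example, is now H1f5). Of these, 46 had a probe on the array that could be named through its RefSeq accession, and 45 were measured, out of 25251 genes or unnamed transcripts tested in the series. The remaining one, the linker histone gene Hist1h1d, was not well above background in enough samples, and 24 had no probe named this way. By class, the 45 genes comprised 5 of H1, 13 of H2A, 11 of H2B, 7 of H3 and 9 of H4. By cluster, 35 belonged to Hist1 on chromosome 13, 7 to Hist2 on chromosome 3, 2 to Hist3 on chromosome 11, and the only gene of Hist4 lies on chromosome 6.

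RNA of lungs of female C57BL/6 mice aged 7 to 8 weeks was measured on 2-colour Agilent arrays, and the agent was a suspension or aerosol of stiff, fibre-like carbon nanotubes (rod-like, hence rCNT). In the aspiration arm, where a drop placed in the throat is drawn into the lung, 4 samples had received 10 µg rCNT daily in 50 µl phosphate-buffered saline (PBS) for 4 days and 4 samples 50 µl PBS alone. In the inhalation arm, 3 samples came from mice that breathed rCNT aerosol at 6.2 to 8.2 mg per cubic metre for 4 h daily over 4 days, and 4 samples from mice left untreated. Lungs were collected 24 h after exposure ended. No allele or transgene is labelled in any group. The array names of the inhalation arm call their RNAs pools, and the labels do not say what was pooled, so p-values reflect only how far these samples scatter, and that scatter may be technical. For untreated replicate 1 the title speaks of PBS aspiration and every other label of an untreated mouse.

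The core histones H2A, H2B, H3 and H4 form the spool on which DNA is wound, and the linker histone H1 binds where the DNA enters and leaves it. Most genes of the clusters are replication-dependent: they are transcribed in S phase, when new DNA needs new histones, and their mRNAs end in a stem-loop bound by SLBP in place of a poly(A) tail. In lung, as in other adult organs, most cells are not dividing, and mRNA of this kind comes mainly from the few that are. Some cluster genes, such as Hist1h1c, Hist1h2bc and Hist2h2be, are also known to give polyadenylated mRNA in cells that have stopped dividing. The labels name T7 RNA polymerase for the amplification and not the primer, so how well stem-loop mRNAs were copied is not given in the sources used here. These are bulk samples, in which fewer cells of a type and less RNA per cell cannot be told apart.

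Between 54.6% and 64.7% of the spots of a sample were well above background and no spot was saturated. Samples of a group correlated with one another across genes at 0.994 to 0.998. Slide 1 carried all 8 samples of the aspiration arm, and slides 2 and 3 the 7 samples of the inhalation arm. The untreated samples stood apart from all others in a list of 9 nuclear noncoding RNAs, which was chosen after such values were seen. The mean level of a list is here the log2 of the mean linear intensity of its measured members, so bright members weigh most. For the 7 measured noncoding RNAs it was 13.0 to 13.2 in aspirated rCNT and 13.4 to 13.8 in PBS lungs. It was 14.0 to 14.2 in inhaled rCNT lungs, against 10.0 to 10.3 in untreated lungs. Heart muscle markers stood out in the PBS control, with a mean level of 13.1 to 13.3 in PBS lungs, against 11.3 to 12.4 in untreated lungs. Of these markers 8 of 8 were lower in aspirated rCNT than in PBS lungs. The part of either list in the histone values was not tested. Markers of lung epithelium had a mean level of 16.1 to 17.0 in all 15 samples, and none of the 8 was below background in any group. All values below are normalised log2 intensities, on which a difference of 1 is a doubling, and a gene is called when its limma p-value, adjusted by the Benjamini-Hochberg method over all 25251 tested, is below 0.05.

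The first comparison asks how aspirated rCNT changed the histone genes relative to PBS aspiration. Of the 45 measured genes 34 were higher and 4 were lower in aspirated rCNT lungs, and 7 did not pass. The shares are 75.6% higher, where 20.6% of everything tested was higher, and 8.89% lower, where 26.5% of everything tested was lower. The median change of the 45 genes was 0.44 on the log2 scale, and that of all tested was -0.04. In 29 of the 45 every aspirated rCNT sample lay above every PBS sample, against 19.2% of everything tested, and 11 were called and at least 2-fold higher, against 2.87%. Because 10 of the 45 passed the background filter through only some samples, the count was repeated over the 35 that were well above background in all 15 samples. There, 25 were higher and 4 were lower, against 21.9% and 29.9% of everything that passed this filter.

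The largest rises were in a linker histone and in H2A. Hist1h1b encodes the linker histone H1.5. It measured 10.50, 10.50, 11.08 and 10.46 in aspirated rCNT lungs, against 8.10, 8.68, 7.94 and 8.46 in PBS lungs. It rose by 2.34 ± 0.14 (log2 fold change ± SE, limma, adjusted p = 2.1e-09), and the groups were far apart, with replicate 3 highest in the exposed group. Hist1h2ab encodes a replication-dependent H2A. Its values were 13.70, 13.72, 14.03 and 13.67 in aspirated rCNT lungs, against 11.26, 11.84, 11.13 and 11.81 in PBS lungs, a rise of 2.27 ± 0.13 (adjusted p = 1.1e-09). The PBS samples of this gene and of Hist1h1b fell into pairs by dye: replicates 2 and 4, labelled with Cy5, were above replicates 1 and 3, labelled with Cy3, and the fit carries the dye as a term. Hist1h2ag and Hist1h2an, also of H2A, rose by 2.04 ± 0.12 and 1.85 ± 0.10. Hist2h2bb, an H2B gene of the Hist2 cluster, measured 9.02, 9.19, 9.40 and 9.08 in aspirated rCNT lungs, against 7.78, 7.88, 7.66 and 7.79 in PBS lungs, and rose by 1.40 ± 0.10. Its neighbour in the name table, the H3 gene Hist2h3b, measured 10.02, 10.14, 10.45 and 10.16 in aspirated rCNT lungs, against 8.73, 8.91, 8.68 and 8.97 in PBS lungs, and rose by 1.37 ± 0.12. Hist1h2ah and Hist1h2ak completed the 8 largest, at 1.37 ± 0.09 and 1.33 ± 0.09. In each of these 8 genes the exposed values all lay above the PBS values.

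**Figure D1:**
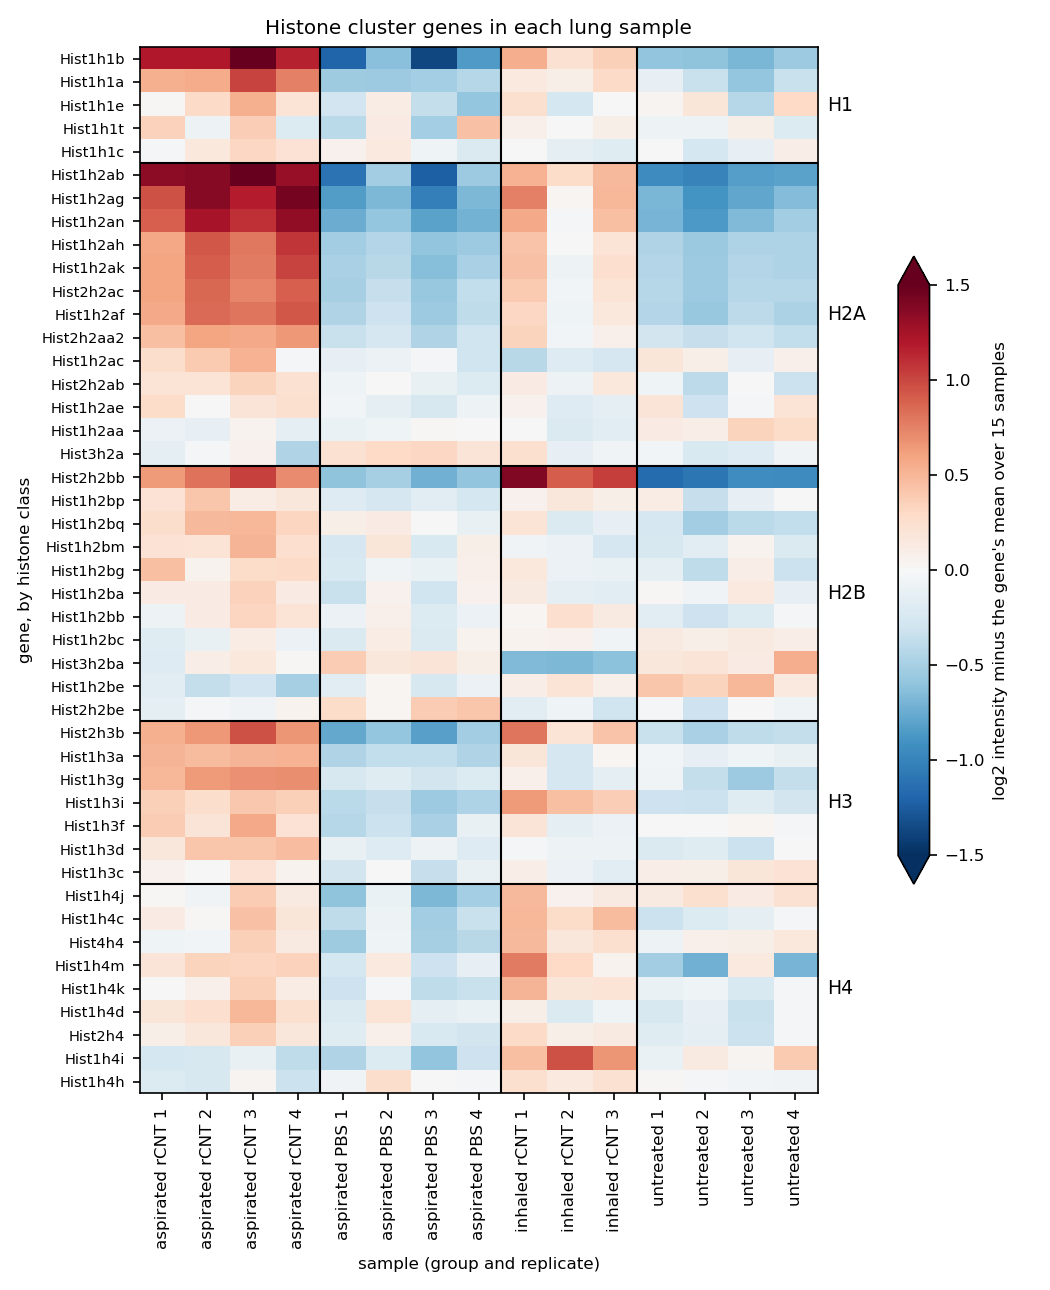
Each row is 1 of the 45 measured histone genes, ordered by class and within a class by its change after aspiration, and each column is 1 sample, with the groups separated by lines. Colour gives the log2 intensity minus the gene's mean over the 15 samples; H2A genes such as Hist1h2ab and Hist1h2ag are red in all 4 aspirated rCNT samples and blue in all 4 PBS and all 4 untreated samples, whereas Hist1h1c and Hist1h2bc show little contrast.

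To show what lies in front of these genes, the 250 bases before the start of 6 of them are printed from RefSeq's promoter table (build GRCm38.p6, 5′ to 3′ on the gene's strand). They are the H1, H2A, H2B and H3 genes with the largest aspiration rise of their class (Hist1h1b, Hist1h2ab, Hist2h2bb and Hist2h3b) and both measured Hist3 genes, which did not rise. Capitals mark matches, on either strand, to CCAAT (the CCAAT box), TATAAA (an element near the start of many genes), ATTTGCAT (the octamer of H2B promoters) and AAACACA (the AC box of H1 promoters).
Hist1h1b (chr13:21780626-21780875, minus strand): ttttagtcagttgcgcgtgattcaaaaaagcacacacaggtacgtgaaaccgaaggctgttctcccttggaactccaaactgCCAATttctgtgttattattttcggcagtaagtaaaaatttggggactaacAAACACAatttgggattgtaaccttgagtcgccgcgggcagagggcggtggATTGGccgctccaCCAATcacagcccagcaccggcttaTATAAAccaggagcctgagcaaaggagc
Hist1h2ab (chr13:23750838-23751087, plus strand): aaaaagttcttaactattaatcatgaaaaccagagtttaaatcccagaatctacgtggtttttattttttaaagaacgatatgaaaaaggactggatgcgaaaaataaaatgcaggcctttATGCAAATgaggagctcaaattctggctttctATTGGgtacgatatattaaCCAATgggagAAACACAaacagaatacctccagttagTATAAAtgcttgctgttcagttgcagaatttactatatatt
Hist2h2bb (chr3:96269450-96269699, plus strand): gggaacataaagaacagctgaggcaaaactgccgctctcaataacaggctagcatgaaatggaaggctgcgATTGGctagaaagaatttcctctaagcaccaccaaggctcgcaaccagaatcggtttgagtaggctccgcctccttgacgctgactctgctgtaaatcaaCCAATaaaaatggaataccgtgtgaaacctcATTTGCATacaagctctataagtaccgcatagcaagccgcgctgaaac
Hist2h3b (chr3:96268404-96268653, plus strand): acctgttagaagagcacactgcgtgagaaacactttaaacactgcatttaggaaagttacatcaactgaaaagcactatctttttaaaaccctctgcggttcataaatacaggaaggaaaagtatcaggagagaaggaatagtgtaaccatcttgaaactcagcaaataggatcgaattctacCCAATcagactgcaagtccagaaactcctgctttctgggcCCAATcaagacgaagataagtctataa
Hist3h2a (chr11:58954435-58954684, plus strand): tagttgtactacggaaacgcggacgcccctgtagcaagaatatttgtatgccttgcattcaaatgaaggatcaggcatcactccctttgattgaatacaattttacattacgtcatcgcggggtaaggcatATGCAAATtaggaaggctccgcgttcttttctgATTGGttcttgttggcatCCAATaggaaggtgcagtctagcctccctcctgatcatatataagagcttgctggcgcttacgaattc
Hist3h2ba (chr11:58948661-58948910, plus strand): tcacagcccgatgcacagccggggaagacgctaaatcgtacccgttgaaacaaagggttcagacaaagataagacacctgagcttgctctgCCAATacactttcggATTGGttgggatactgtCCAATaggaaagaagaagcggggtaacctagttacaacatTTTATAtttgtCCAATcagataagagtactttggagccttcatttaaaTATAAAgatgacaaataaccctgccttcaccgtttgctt

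Of the 45 measured genes 40 matched a promoter window of 300 bases (250 before and 50 after the start), which was searched for the 4 motifs on both strands. No motif contains another. CCAAT was found in 34 of the 40 windows (85.0%), against 37.4% of all 32851 windows in the table, and TATAAA in 24, against 13.6% of all windows. The octamer ATTTGCAT was found in 13 (32.5%), against 1.74% of all windows, and all 13 belonged to H2A or H2B genes, of which 22 had a window. AAACACA was found in 8 windows (20.0%, against 7.18%), among them 4 of the 5 H1 genes. CCAAT was in all 32 windows outside H4 and in 2 of the 8 H4 windows. H2A and H2B genes often lie back to back and share 1 stretch between them, so windows are not independent. By call, CCAAT was in 27 of 31 windows of genes that were higher after aspiration and in 5 of 6 windows of genes that did not pass, and ATTTGCAT was in 9 of 31 and in 2 of 6. Of the 3 windows of genes that were lower, 2 held CCAAT, 2 ATTTGCAT and none TATAAA, which was in 20 of the 31 windows of higher genes. Hist3h2a, which was lower after aspiration, carries the octamer 119 bases before its start, and Hist2h2bb, which was higher, carries it 48 bases before its start.

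By class, aspiration moved H2A and H3 most. Of the 13 H2A genes 11 were higher and 1 was lower, with a median change of 1.21, and 7 of them were at least 2-fold higher. Hist1h2af, Hist2h2ac and Hist2h2aa2 lay between 0.90 and 1.22. These H2A genes encode nearly identical proteins, and probe sequences were not used here, so their probes may catch one another's RNA and their values may not be independent. A second probe of Hist1h2ak also rose, by 2.03. A second, dimmer probe of Hist2h2aa2 went the other way, at -0.37 ± 0.09, so the change of that gene is uncertain. All 7 H3 genes were higher, with changes of 0.27 to 1.37 and a median of 0.78. Of the H3 genes 5, and of the H2A genes 10, were well above background in all 15 samples. Hist1h3a measured 7.25, 7.21, 7.25 and 7.26 in aspirated rCNT lungs, against 6.29, 6.37, 6.37 and 6.30 in PBS lungs, and rose by 0.91 ± 0.07. Only 1 PBS sample was well above background for this gene. Hist1h3g was not well above background in any PBS sample and was at least 1.81-fold higher in aspirated rCNT lungs. It passed the background filter only through the aspirated rCNT samples, where it was high, so its rise is not independent of that filter. The dim H2A gene Hist1h2ae and the dim H2B gene Hist1h2bp, also below background in every PBS sample, were at least 1.19-fold and at least 1.30-fold higher. They too passed the filter only through the aspirated rCNT samples. The call of Hist1h2ae was lost in 3 of the 15 refits that each leave out 1 sample (without aspirated rCNT replicate 1 or 3, or PBS replicate 3).

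Of the 9 H4 genes 7 were higher and 1 was lower, with a median of 0.40 and none at least 2-fold higher. The single Hist4 gene, Hist4h4, measured 11.48, 11.51, 11.91 and 11.69 in aspirated rCNT lungs, against 11.02, 11.48, 11.05 and 11.14 in PBS lungs, and rose by 0.48 ± 0.11. The H4 gene Hist1h4i did not pass, at 0.14 ± 0.11, whereas its second probe gave 0.95 ± 0.11, so this gene is uncertain too. Among the 5 H1 genes, Hist1h1a (H1.1) measured 7.66, 7.67, 8.14 and 7.88 in aspirated rCNT lungs, against 6.59, 6.57, 6.61 and 6.69 in PBS lungs, and rose by 1.22 ± 0.11. Hist1h1e (H1.4) rose by 0.54 ± 0.16, a call that was lost without aspirated rCNT replicate 3 (adjusted p = 0.055). Of the 11 H2B genes 6 were higher and 2 were lower, with a median of 0.31 that is below those of the other classes, and Hist2h2bb was the only one at least 2-fold higher. Hist1h2bb, the H2B neighbour of Hist1h2ab, measured 6.40, 6.60, 6.80 and 6.68 in aspirated rCNT lungs, against 6.39, 6.56, 6.27 and 6.39 in PBS lungs, close to background, and did not pass (0.22 ± 0.09, adjusted p = 0.062).

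**Figure D2:**
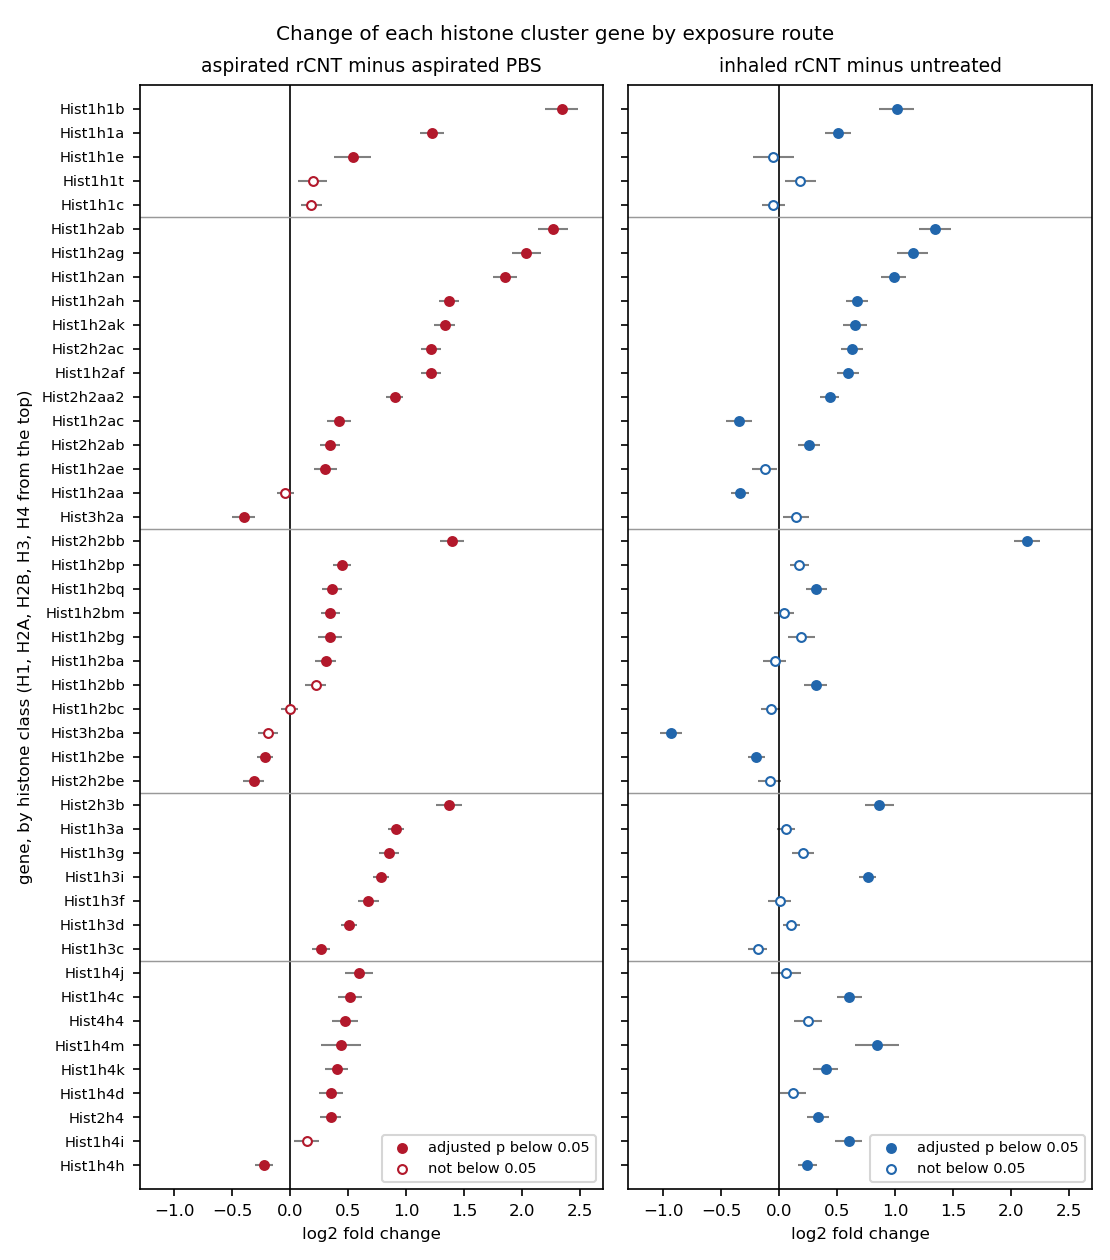
The log2 fold change of each of the 45 histone genes is plotted with its SE from the fit, for aspirated rCNT minus PBS at the left and inhaled rCNT minus untreated at the right; filled points have an adjusted p below 0.05. Points lie to the right of 0 for 34 genes after aspiration and 22 after inhalation, counting called genes, and Hist2h2bb at 2.14 and Hist3h2ba at -0.93 are the extremes after inhalation.

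Hist1h1c, Hist1h2bc and Hist2h2be, named above as also made outside S phase, and the testis-type genes Hist1h1t, Hist1h2aa and Hist1h2ba had changes between -0.32 and 0.31 after aspiration. Hist1h1c (H1.2) measured 11.61, 11.79, 11.94 and 11.84 in aspirated rCNT lungs, against 11.70, 11.78, 11.57 and 11.42 in PBS lungs. The groups overlapped and it did not pass (0.18 ± 0.09, adjusted p = 0.11). Hist1h2bc was at 13.65, 13.72, 13.94 and 13.74 in aspirated rCNT lungs, against 13.62, 13.95, 13.61 and 13.89 in PBS lungs, a difference of -0.00 ± 0.07 with overlapping groups. Hist2h2be was lower, at 8.26, 8.39, 8.36 and 8.46 in aspirated rCNT lungs, against 8.68, 8.45, 8.79 and 8.83 in PBS lungs (-0.32 ± 0.09, adjusted p = 0.0086), with a narrow overlap. Hist3h2a fell most, at 11.35, 11.47, 11.56 and 11.05 in aspirated rCNT lungs, against 11.73, 11.80, 11.81 and 11.69 in PBS lungs (-0.40 ± 0.10, adjusted p = 0.0040), and is the only one of the 45 whose exposed samples all lay below its PBS samples, against 23.3% of everything tested. Hist1h4h and Hist1h2be were also lower, at -0.23 ± 0.08 and -0.22 ± 0.07, and each lost its call without aspirated rCNT replicate 4. That of Hist1h4h was lost in 4 of the 15 refits that leave out 1 sample. The call of Hist1h2be was lost in no other such refit, but in some alternatives of the processing (limma, adjusted p up to 0.14). Of the testis-type genes, Hist1h1t (H1t) and Hist1h2aa did not pass, at 0.19 ± 0.12 and -0.04 ± 0.07, and Hist1h2ba rose by 0.31 ± 0.09, a call that was lost without PBS replicate 1 (adjusted p = 0.054).

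The second comparison asks the same of inhaled rCNT, relative to untreated mice. Of the 45 genes 22 were higher and 4 were lower, and 19 did not pass. The shares are 48.9% higher, where 28.4% of everything tested was higher, and 8.89% lower, where 32.5% of everything tested was lower. The median change was 0.24, and that of all tested was -0.02. In 21 genes every inhaled rCNT sample lay above every untreated sample, against 25.7% of everything tested, and 4 were called and at least 2-fold higher, against 4.16%. The count depends on the scaling: with each sample centred on its median in place of quantile normalisation, 11 were higher and 11 lower, against 15.2% and 40.1% of everything tested, as the median of all tested moved to -0.15. Of all calls 46.6% were higher with quantile normalisation and 27.5% with median centring. Relative to the median of all tested, the median of the 45 was 0.26 higher with quantile normalisation and 0.24 higher with median centring. Over the 35 genes well above background in all samples, 18 were higher and 3 lower, against 29.6% and 36.2% of everything that passed this filter. Within slide 2 (1 inhaled rCNT and 3 untreated samples) 19 were higher and 1 was lower, against 23.2% and 25.6% of everything tested. Within slide 3 (2 inhaled rCNT samples and 1 untreated) 16 were higher and 3 were lower, against 20.0% and 22.6%.

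Hist2h2bb changed most after inhalation. It measured 9.77, 9.29 and 9.41 in inhaled rCNT lungs, against 7.22, 7.30, 7.45 and 7.44 in untreated lungs, and rose by 2.14 ± 0.11 (adjusted p = 4.9e-10). Its rise was 2.49 within slide 2 and 1.87 within slide 3. Hist1h2ab was at 12.88, 12.63 and 12.84 in inhaled rCNT lungs, against 11.42, 11.36, 11.53 and 11.56 in untreated lungs, and rose by 1.35 ± 0.14. Hist1h2ag and Hist1h2an rose by 1.15 ± 0.14 and 0.99 ± 0.11. Hist1h1b measured 9.85, 9.54 and 9.66 in inhaled rCNT lungs, against 8.71, 8.70, 8.62 and 8.76 in untreated lungs, and rose by 1.01 ± 0.15. Hist2h3b rose by 0.86 ± 0.13, the H4 gene Hist1h4m by 0.84 ± 0.19 and the H3 gene Hist1h3i by 0.76 ± 0.07. In Hist1h4m the groups came near each other, with 8.45, 7.96 and 7.71 in inhaled rCNT lungs, against 7.15, 6.94, 7.82 and 6.97 in untreated lungs, where replicate 3 overlapped the exposed samples. In the other 7 of these 8 genes the groups did not overlap, and inhaled rCNT replicate 1 was the highest exposed sample.

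By class, 9 of 13 H2A genes were higher after inhalation and 2 were lower, and 6 of 9 H4 genes were higher and none lower. In H3, H1 and H2B the higher counts were 2 of 7, 2 of 5 and 3 of 11 (with 2 H2B genes lower), and those of H3 and H2B are near the 28.4% of everything tested. The second probe of Hist2h2aa2 again went the other way, at -0.36, against 0.44 ± 0.08 for the probe used. Hist1h4i measured 9.52, 10.02 and 9.73 in inhaled rCNT lungs, against 8.96, 9.20, 9.10 and 9.46 in untreated lungs, and rose by 0.60 ± 0.12, with 1.23 from its second probe. Hist3h2ba, the H2B gene of the Hist3 cluster, fell most. It was at 7.10, 7.09 and 7.15 in inhaled rCNT lungs, against 7.93, 7.95, 7.89 and 8.31 in untreated lungs, a fall of -0.93 ± 0.10 (adjusted p = 5.9e-07), with -0.89 within slide 2 and -1.14 within slide 3. Its values in the aspiration arm were 7.57, 7.86, 7.92 and 7.79 in aspirated rCNT lungs, against 8.15, 7.93, 7.96 and 7.86 in PBS lungs, which overlapped (-0.19 ± 0.09, adjusted p = 0.087). Hist1h2ac was not well above background in any inhaled rCNT sample and was at least 1.27-fold lower there than in untreated lungs, 2 of which measured it, a call that was lost within each slide and without inhaled rCNT replicate 1 or untreated replicate 1. Hist1h2bb and Hist1h2bq were not well above background in any untreated sample. In inhaled rCNT lungs they were at least 1.17-fold and at least 1.12-fold higher. Only 1 inhaled rCNT sample measured Hist1h2bq, so both groups were close to background for that gene. The call of Hist1h2bb was lost without inhaled rCNT replicate 2 (adjusted p = 0.084) and that of Hist1h2bq without replicate 1 (0.055). Hist1h2aa and Hist1h2be were also lower, at -0.34 ± 0.08 and -0.20 ± 0.07. The call of Hist1h2be was lost without inhaled rCNT replicate 2 or 3 or untreated replicate 1 or 3 (adjusted p up to 0.12), and within each slide. Hist1h1c and Hist1h2bc did not pass here either, at -0.05 ± 0.10 and -0.07 ± 0.08 (adjusted p = 0.68 and 0.46), but were lower with median centring, at -0.43 and -0.55. Hist1h2ah and Hist1h2ak rose by 0.67 ± 0.09 and 0.65 ± 0.10, and lost their calls with median centring, at 0.19 and 0.17.

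**Figure D3:**
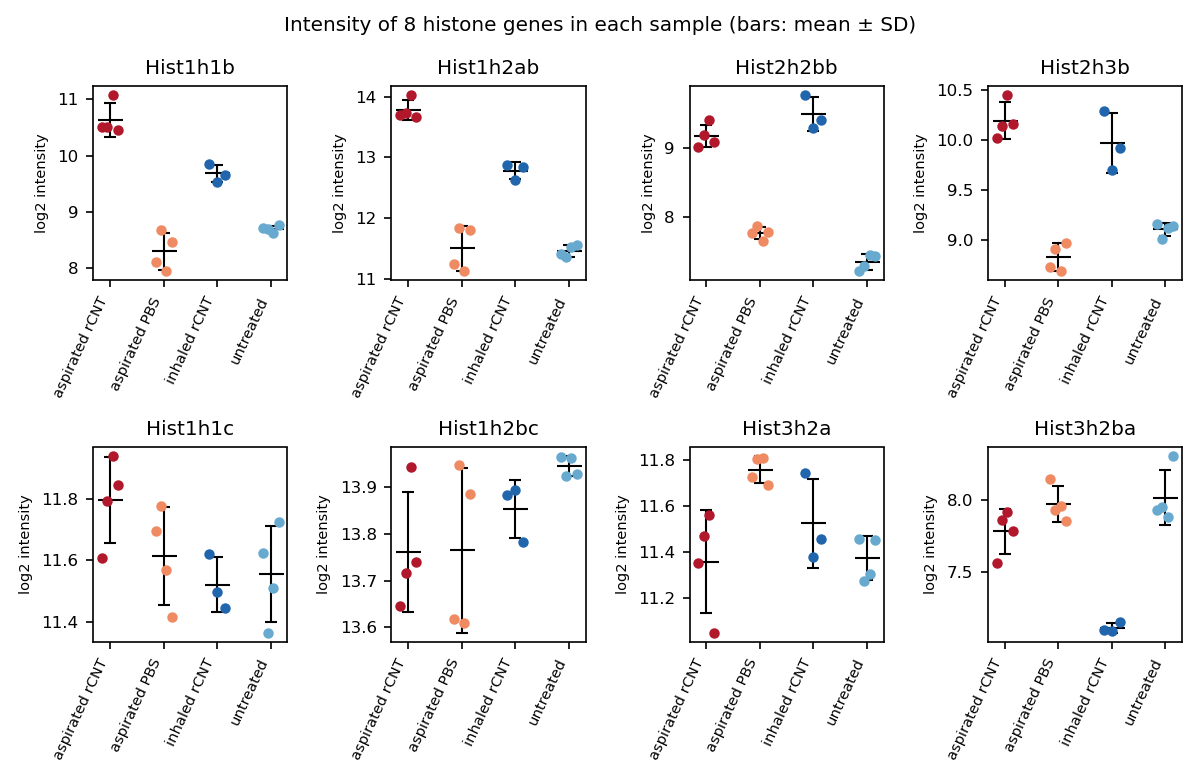
Log2 intensity of 8 histone genes in each of the 15 samples, by group, with the group's mean and SD as bars; the vertical axes differ between panels and do not start at 0. The upper row shows genes whose exposed samples lie above their own controls in both arms, and in the lower row Hist3h2ba is at 7.09 to 7.15 in the inhaled rCNT samples and at 7.89 to 8.31 in the untreated ones.

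The 2 comparisons share no samples, so their calls can be set side by side. Both come from 1 fit with a shared estimate of the spread and of the dye, so they are not fully independent. Higher after both were 19 of the 45 genes, against 6.34% of everything tested. They comprised 8 H2A genes (Hist1h2ab, Hist1h2af, Hist1h2ag, Hist1h2ah, Hist1h2ak, Hist1h2an, Hist2h2aa2 and Hist2h2ac), the dim H2A gene Hist2h2ab, the linker genes Hist1h1a and Hist1h1b, the H2B genes Hist2h2bb and Hist1h2bq, the H3 genes Hist1h3i and Hist2h3b, and the H4 genes Hist1h4c, Hist1h4k, Hist1h4m and Hist2h4. Of the second probes, that of Hist1h2ak rose after both and that of Hist2h2aa2 fell after both. Those of Hist1h4k and Hist2h4 gave 0.46 ± 0.11 and 0.09 ± 0.11 after aspiration. After inhalation they gave 0.11 ± 0.12 and -0.02 ± 0.12. When samples were left out in turn, 16 of the 19 kept both calls each time. Hist1h4m, at 0.44 after aspiration (adjusted p = 0.049), lost that call without aspirated rCNT replicate 2, 3 or 4, PBS replicate 1, 3 or 4, or untreated replicate 1 or 4 (adjusted p up to 0.12). Hist2h2ab lost its inhalation call without inhaled rCNT replicate 1 or 3 or untreated replicate 2 or 4, and Hist1h2bq its own as given above. Of the 19 genes, Hist2h2ab, Hist1h2bq and Hist1h1a were not well above background in every sample. Hist2h2ab was so in only 1 PBS, 2 inhaled rCNT and 1 untreated samples, and passed the background filter only through the aspirated rCNT samples. Hist1h2bq was so in only 1 inhaled rCNT sample and in no untreated sample. A further 14 were higher after aspiration and did not pass after inhalation, against 6.91% of everything tested, and 5 of these were H3 genes. Hist1h2be alone was lower after both, against 9.9% of everything tested. Hist1h2ac was higher after aspiration and lower after inhalation, and Hist1h4h was lower after aspiration and higher after inhalation (0.24, adjusted p = 0.021), which was lost without inhaled rCNT replicate 1 or 3, within each slide and with median centring. Of everything tested, 7.39% was higher after aspiration and lower after inhalation, and 8.27% the reverse, so opposite calls are not particular to these genes. Hist1h1c, Hist1h1t and Hist1h2bc passed in neither, against 23.9% of everything tested.

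Whether the effects differ was tested as the aspiration effect minus the inhalation effect in the same model. The route, the slide and the type of control change together here and cannot be told apart, and any difference between PBS and untreated lungs is part of this value. The difference was positive for 24 genes and negative for 4, against 28.4% and 28.5% of everything tested. Its sign does not give the size of an effect. A positive difference can come from a fall after inhalation, as for Hist3h2ba and Hist1h2aa, and a negative one from a fall after aspiration, as for Hist3h2a. In either direction 28 of the 45 genes differed (62.2%), near the 57.0% of everything tested. With median centring the counts were 31 and 2, against 8855 and 3911 of the 25251 tested. There the median of all tested was 0.14, and 69.4% of all calls were positive, against 49.9% with quantile normalisation. With quantile normalisation the difference was positive for 11 of 13 H2A, 6 of 7 H3 and 3 of 5 H1 genes, and for 3 of 11 H2B genes and 1 of 9 H4 genes. Over the 35 genes well above background in all samples it was positive for 19 and negative for 4, against 31.1% and 30.7% of everything that passed this filter. It was positive there for 9 of 10 H2A, 4 of 5 H3, 2 of 4 H1, 3 of 7 H2B and 1 of 9 H4 genes. Of the 24 positive calls 7 were lost without some 1 sample: Hist1h1e and Hist1h2bm in 11 of 15 such refits each, Hist1h2ba in 9, Hist1h2aa in 6, Hist1h2ae in 4, and Hist1h4j and Hist2h3b in 1 (without inhaled rCNT replicate 2), which also lost the negative call of Hist1h4i. The most positive differences were those of Hist1h1b (1.33 ± 0.21, adjusted p = 5.4e-05), Hist1h2ab (0.92 ± 0.19) and Hist1h2ag (0.88 ± 0.18). The most negative were those of Hist2h2bb (-0.74 ± 0.15, adjusted p = 0.00063), Hist3h2a (-0.55 ± 0.15) and Hist1h4h (-0.47 ± 0.12). For H4 genes such as Hist1h4k and Hist2h4 the differences were -0.00 ± 0.15 and 0.01 ± 0.13. Their second, dimmer probes gave 0.35 ± 0.17 and 0.11 ± 0.16, and that of Hist2h4 was close to background. The H3 gene Hist1h3a measured 6.93, 6.50 and 6.77 in inhaled rCNT lungs, against 6.71, 6.62, 6.67 and 6.64 in untreated lungs. Its inhalation effect was 0.06 ± 0.08 and the difference 0.85 ± 0.11. It was well above background in only 1 PBS and 2 untreated samples. For another H3 gene, Hist1h3i, the difference was 0.02 ± 0.10.

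The controls themselves differed. In PBS lungs, relative to untreated lungs, 4 histone genes were higher and 12 lower, against 26.3% and 33.1% of everything tested, beside shares of 8.89% and 26.7% among the histone genes. With median centring 5 were higher and 7 lower, against 7548 and 5202 of the 25251 tested. There 59.2% of all calls were higher, against 44.3% with quantile normalisation. With quantile normalisation the 12 lower ones included 5 of the 7 H3 genes and 3 of the 9 H4 genes. These H4 genes were Hist1h4j at -0.66 ± 0.12, Hist1h4i at -0.50 ± 0.11 and Hist4h4 at -0.44 ± 0.11. The second probe of Hist1h4i went the other way, at 0.29 ± 0.11, so the change of that gene is uncertain. When samples were left out in turn the lower count was 8 to 14, and the H3 calls of Hist1h3i and Hist2h3b were lost in 6 and 8 of the 15 refits and the H2B call of Hist1h2bc in 9. Hist1h1b was at 8.10, 8.68, 7.94 and 8.46 in PBS lungs, against 8.71, 8.70, 8.62 and 8.76 in untreated lungs (-0.40 ± 0.14, adjusted p = 0.022), a call that was lost without PBS replicate 1 or 3 or untreated replicate 1 or 4 (adjusted p up to 0.087). Hist2h2bb was higher in PBS lungs by 0.42 ± 0.10, Hist3h2a by 0.39 ± 0.10 and Hist2h2be by 0.38 ± 0.09. For Hist1h2ab the controls differed by 0.04 ± 0.13. With PBS lungs in place of untreated lungs as the control of inhaled rCNT, a comparison across slides, 24 genes were higher and 2 were lower, against 27.5% and 27.7% of everything tested. With median centring 16 were higher and 11 lower, against 3499 and 13112 of the 25251 tested. There the median of all tested was -0.29, and 21.1% of all calls were higher, against 49.9% with quantile normalisation. The changes relative to PBS lungs were 1.72 ± 0.11 for Hist2h2bb, 1.42 ± 0.15 for Hist1h1b, 1.30 ± 0.14 for Hist1h2ab and -0.88 ± 0.10 for Hist3h2ba. The aspiration comparison uses the same PBS samples.

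Genes that act with histone supply and cell division were read in the same fit. Of 39 measured genes of DNA replication and S phase 38 were higher after aspiration and 1 was lower, with a median of 1.01. After inhalation 16 were higher and 4 lower, with a median of 0.11. The nucleotide-supply gene Rrm2 rose by 2.50 ± 0.07 after aspiration and 1.46 ± 0.08 after inhalation, and Uhrf1, which helps to copy DNA methylation behind the replication fork, by 2.49 ± 0.12 and 1.85 ± 0.13. The helicase subunit gene Mcm5 rose by 1.36 ± 0.12 after aspiration and did not pass after inhalation (0.12 ± 0.13, adjusted p = 0.44). Of 24 genes of mitosis 24 were higher after aspiration, with a median of 2.32, and 21 after inhalation, with a median of 1.16. Mki67, the gene of the proliferation marker Ki-67, rose by 2.52 ± 0.10 after aspiration and 2.22 ± 0.10 after inhalation.

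Of 14 genes that make or degrade histone mRNA 6 were higher and none lower after aspiration, and 2 were higher and 6 lower after inhalation, where 32.5% of everything tested was lower. Slbp, the stem-loop binding protein gene, rose by 0.61 ± 0.10 after aspiration and fell after inhalation (-0.47 ± 0.11, adjusted p = 0.0014). Lsm11, of the U7 particle that trims histone mRNA, rose by 0.43 ± 0.07 after aspiration and fell after inhalation (-0.55 ± 0.08). Ccne1, cyclin E1, rose by 1.49 ± 0.09 and 0.90 ± 0.09. Of 20 histone chaperone genes 9 were higher and 3 lower after aspiration, and 10 were higher and 5 lower after inhalation. Asf1b, the ASF1 form of dividing cells, rose by 1.95 ± 0.10 and 0.86 ± 0.11, whereas Asf1a was lower after both, at -0.36 ± 0.07 and -0.98 ± 0.08. The chromatin assembly subunit genes Chaf1a and Chaf1b rose by 1.29 ± 0.08 and 1.45 ± 0.09 after aspiration.

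Replacement variants lie outside the clusters, and most give polyadenylated mRNA that is not tied to S phase, although H2afx also gives a stem-loop mRNA. Of 12 measured 7 were higher and 2 lower after aspiration, where 20.6% and 26.5% of everything tested were. After inhalation 3 were higher, a share near the 28.4% of everything tested, and 1 was lower. H2afx (H2A.X) rose by 1.34 ± 0.06 after aspiration and 0.65 ± 0.06 after inhalation, and H2afz (H2A.Z) by 0.98 ± 0.06 and 0.82 ± 0.07. The H3.3 gene H3f3a passed in neither, at -0.05 ± 0.06 and -0.12 ± 0.06. H1f0, the linker histone of cells that have stopped dividing, did not pass after aspiration (-0.01 ± 0.11, adjusted p = 0.95) and fell after inhalation (-1.17 ± 0.11).

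**Figure D4:**
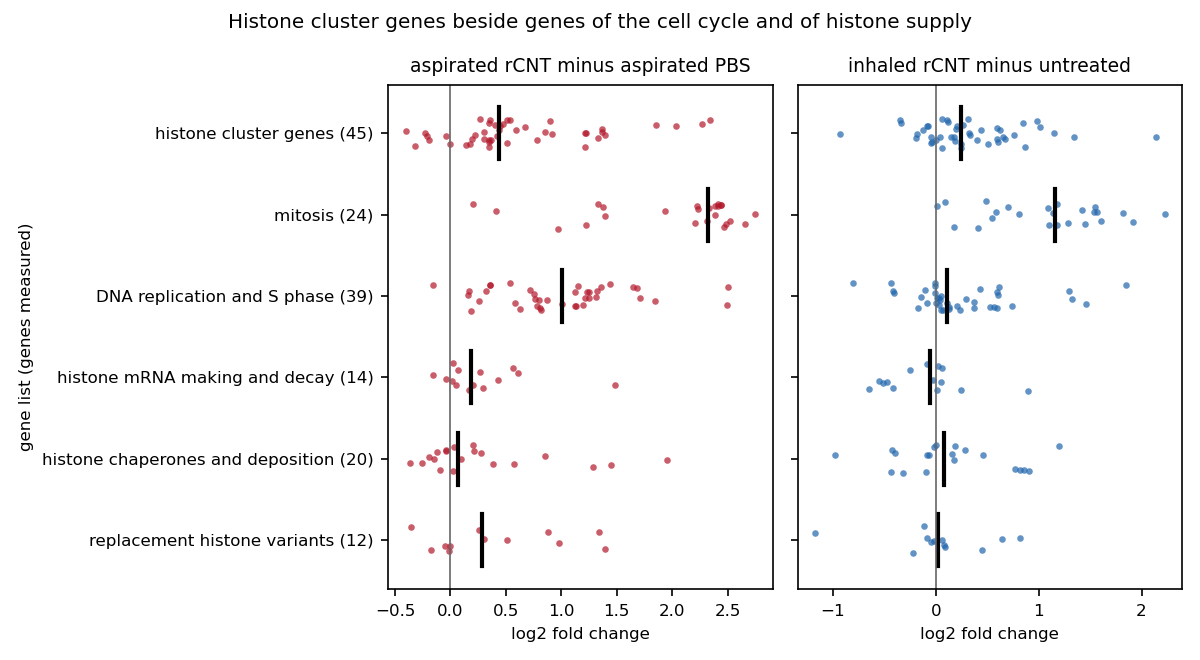
Each point is the log2 fold change of 1 gene and each black bar the median of its list, for aspirated rCNT minus PBS at the left and inhaled rCNT minus untreated at the right; the horizontal scales differ. The median of the 45 histone genes is 0.44 after aspiration and 0.24 after inhalation, that of the mitosis genes 2.32 and 1.16, and that of the S phase genes 1.01 and 0.11.

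Markers of other cell types were read in the same fit. Of everything tested, 20.6% was higher and 26.5% lower after aspiration, and 28.4% and 32.5% after inhalation. Some counts below are near these shares, such as 2 of 7 neutrophil markers higher after inhalation. Macrophage markers were higher in 5 and lower in 2 of 7 after aspiration and higher in 3 and lower in 2 after inhalation. Their mean level was 12.7 to 12.9 in aspirated rCNT, 12.1 to 12.3 in PBS, 11.9 to 12.1 in inhaled rCNT and 11.9 to 12.0 in untreated lungs. Eosinophil markers were higher in 5 of 7 after aspiration, and higher in 1 and lower in 3 after inhalation. Neutrophil markers were higher in 4 and lower in 1 of 7 after aspiration, and higher in 2 and lower in 3 after inhalation. T cell markers were higher in 2 of 7 after aspiration, and higher in 1 and lower in 5 after inhalation. None of 8 B cell markers passed after aspiration and 8 were lower after inhalation. Their mean level was 8.25 to 8.90 in inhaled rCNT lungs, against 9.78 to 11.7 in untreated lungs. Of the erythroid markers 6 of 7 were lower after each exposure, and 1, Gata1, was higher after aspiration. Of the endothelial markers 7 of 8 were lower after aspiration and 8 of 8 after inhalation. Lung epithelium markers were lower in 5 and higher in 1 of 8 after aspiration, and lower in 2 and higher in 1 after inhalation. The part of these cells in the histone changes was not tested.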

How the data were processed

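RNA of 15 lung samples was read from 14 arrays on 3 slides, each sample as 1 channel (Cy3 or Cy5); 1 array holds both inhaled rCNT replicate 2 and untreated replicate 4. Per the file headers, the authors' spot intensity values were extracted with Agilent Feature Extraction 11.0.1.1 for an array designed on build mm9. As deposited, the median intensities of spot and local background were used, in the channel holding the sample. The deposited series table, taken as log2, correlated at 0.998 to 1.00 with the log2 own-channel intensity, and its column medians lay between 6.58 and 6.59. Its background correction and the way it was brought to that median are not given in the sources used here, and the submitters' processing notes name limma. It and the authors' processed intensity served as alternatives.

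Intensities were corrected with normexp (offset 50) over 62976 spots, log2-transformed and normalised by quantiles. Control and outlier-flagged spots (106 to 154 per sample) were left out. Median spot brightness was 56.5 to 149.5 units, and precision is limited by the number of arrays. Probes had to be well above background in 3 or more samples of some group, which 34271 of 55681 were. Of 29123 probes with a RefSeq accession 27656 matched a symbol of the GRCm38.p6 table, used for names and neighbours only, in which the Hist names stand as synonyms. The brightest probe stood for a gene, and 5 histone genes had several kept probes. Where no sample of a group was well above background, a fold is a lower bound, taken against the higher of the dim probe's own signal and the dimmest signal that counted as well above background in that sample.

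A single linear model of group and dye (lmFit and eBayes of limma 3.58.1, R 4.3.3, two-sided) took in every sample, and the step was tested on simulated data. P-values were adjusted by Benjamini-Hochberg over everything tested (threshold 0.05). Named genes were the 8 largest rises and 4 largest falls of each exposure, the 3 most positive and 3 most negative differences between exposures, and 14 listed by name, of which Hist2h3c1 had no probe. Other members were named as examples after their values were seen. The histone genes and all gene lists were chosen with earlier results of these data known. Alternatives covered signal, scaling, filter, probe choice, slide, shared array, dye, samples, variance model, weights, the replicate number and each sample left out. Sequences come from RefSeq (GRCm38.p6), and figures were drawn with Python 3.11.15.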

Additional observations from a re-analysis of the deposited data

Results flagged for a closer look

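The effects of the 2 exposures differed, by the test of the difference itself (aspiration effect minus inhalation effect, limma, adjusted p below 0.05), for 16 of the 24 named genes, where 57.0% of everything tested differed. Some of the 24 were named for this difference or for their changes, so the count says nothing particular of them. The difference was positive for Hist1h1b (1.33), Hist1h2ab (0.92), Hist1h2ag (0.88), Hist1h2an (0.86), Hist1h2ac (0.76), Hist3h2ba (0.74), Hist1h1a (0.71), Hist1h2ah (0.70), Hist1h2ak (0.68), Hist2h3b (0.51), Hist1h2ba (0.34) and Hist1h2aa (0.30). It was negative for Hist1h4i (-0.46), Hist1h4h (-0.47), Hist3h2a (-0.55) and Hist2h2bb (-0.74). For Hist3h2ba and Hist1h2aa the positive value comes with a fall after inhalation and no call after aspiration. The calls of Hist1h2ba and Hist1h2aa were lost in 9 and 6 of the 15 refits that leave out 1 sample, and those of Hist2h3b and Hist1h4i without inhaled rCNT replicate 2. Route, slide and control cannot be told apart in these values.

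In 6 of 72 groups of 4 samples 1 sample stood far from the other 3, a gap that chance gives in about 1 of 20 groups. Aspirated rCNT replicate 3 was the highest of its group for Hist1h1b (11.08, next 10.50), Hist1h2ab (14.03, next 13.72) and Hist1h2ba (12.03, next 11.82). PBS replicate 2 was the highest for Hist1h4h (8.22, next 7.96), untreated replicate 2 the lowest for Hist1h2ah (14.68, next 14.78) and untreated replicate 4 the highest for Hist3h2ba (8.31, next 7.95).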

How the results depend on the processing

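The count of histone genes that were higher after aspiration, 34, stayed between 31 and 36 when samples were left out in turn, and its 4 lower genes between 2 and 5, with 2 without aspirated rCNT replicate 4. After inhalation the higher count, 22, stayed between 19 and 24 and the lower between 2 and 5, with 2 without untreated replicate 1. The count of lower genes after aspiration was 2 with median centring and 2 with cyclic loess, against 4589 and 5749 of the 25251 tested. After inhalation median centring gave 11 higher and 11 lower, against 15.2% and 40.1% of everything tested. Cyclic loess gave 2 lower there, against 6518 of the 25251 tested. Median centring gave 2 negative differences between exposures, 7 genes lower in PBS than in untreated lungs and 11 lower in inhaled rCNT than in PBS lungs, and it reversed Hist1h2ba (-0.45), Hist1h2bc (-0.37) and Hist1h2be (-0.14) in that last comparison. For these settings, the cause was not tested.

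Whether samples were paired by replicate number is not settled by these data, since an arm has only 3 or 4 such pairs. Before the dye was taken out, 0 of 4 aspirated rCNT samples had deviations that correlated best with the control of their own number. Of the inhaled rCNT samples 2 of 3 did. All 4 same-numbered pairs of the aspiration arm were of opposite dye, so the correlation of their deviations was read after the dye was taken out too, a check chosen after the data were seen. It was -0.14 to 0.29 in the aspiration arm, where 2 of 4 correlated best with their own number, and -0.09 to 0.13 in the inhalation arm, where 1 of 3 did. With the replicate block, 34 genes were higher after aspiration and 22 after inhalation, and 0 were higher and 6 lower in PBS than in untreated lungs, and 15 higher and 0 lower in inhaled rCNT than in PBS lungs. The array as a random block could not be fitted, since 1 array holds several samples, and the shared array as a fixed block, added after the data were seen, gave 35 and 22 higher. The shares of everything tested with either block are not given here, so whether these counts stand out cannot be judged. A fit of only the groups compared has no value for the difference between exposures, which needs all 4. Signal over background limits 10 of the 45 genes, which some samples did not measure.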
